A study of Homo sapiens with 6 samples.

Results

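SKOR2 (ENSG00000215474.8) is a gene on the minus strand of chromosome 18 that encodes a transcriptional corepressor of the SKI family. Its accessible sites were followed here in A375 cells, an established human melanoma line, together with those of SKOR1, SKI, SKIL and DACH1. ATAC-seq, in which the Tn5 transposase inserts adapters into open chromatin, was compared between 3 libraries of empty vector cells and 3 libraries of HMGB2OE cells, which overexpress HMGB2, a DNA-bending high mobility group protein. The stable HMGB2OE line was made by lentiviral transduction and drug selection. How the empty vector line was made and which promoter drives HMGB2 are not given in the sources used here. The study describes the libraries as technical replicates of an experiment that was not repeated, so the spread and every p-value below measure differences between libraries and not between separate cell lines. Peaks were chosen by position: a peak belonged to a gene when its centre lay in the gene body, or when it lay in no protein-coding body and the gene had the nearest protein-coding start site. This gave 76 of the 152800 peaks in the atlas, of which 19 were peaks of SKOR2, 11 of SKOR1, 11 of SKI, 8 of SKIL and 27 of DACH1. All 76 passed the filter on low counts, as did 150117 peaks in all.

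Proteins of the SKI family do not bind most of their targets alone. SKI and SnoN, the product of SKIL, bind SMAD proteins and recruit histone deacetylase complexes, which limits transcription of genes that TGF-beta and BMP signals would switch on. TGF-beta in turn leads to the destruction of SKI and SnoN through ubiquitin ligases such as Arkadia, encoded by RNF111. SKOR1 and SKOR2 are relatives found mainly in the nervous system, where SKOR1 partners LBX1 in dorsal spinal cord neurons and SKOR2 is needed for the maturation of cerebellar Purkinje cells. DACH1 is the human counterpart of the fly gene dachshund and acts with eyes absent (EYA) proteins in development. SKI is known to be abundant in melanoma.

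SKOR2 entered the comparison because its peaks held the largest falls in these same libraries. Its fold changes and counts of calls are therefore given as a description, without a test. A peak was called when edgeR gave an adjusted p-value below 0.05 and a fold change of 1.5 or more. Over the atlas, 1.44% of tested peaks were called lower and 1.87% higher in HMGB2OE cells.

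The sequences below locate the change. The body of SKOR2 lies at chr18:47206169-47251660 in hg38. Beyond its start site, and transcribed the opposite way, is MIR4527HG (ENSG00000267761.3), a long non-coding RNA gene at chr18:47285725-47594550 that contains the hairpin of MIR4527. The promoter of SKOR2 is shown because its peak was not among those called. It is the RefSeq sequence of GRCh38.p14 at chr18:47251611-47251910, minus strand. The peaks are shown by their central 300 bases, on the plus strand of hg38. These are the last SKOR2 peak before MIR4527HG (chr18:47283561-47283860), a deep fall inside MIR4527HG (chr18:47522253-47522552) and the called fall with the highest count in empty vector cells (chr18:47323180-47323479). Capitals mark the AP-1 word TGANTCA, searched on both strands. The mature miRNA (RefSeq, GRCh38.p14, chr18:47380503-47380524, plus strand) is shown because its hairpin lies inside MIR4527HG. No peak covered the hairpin. The peaks on either side start at 47353477, which was not called, and at 47417839, which was called lower. Capitals in the miRNA mark its seed, bases 2 to 8.
SKOR2 promoter: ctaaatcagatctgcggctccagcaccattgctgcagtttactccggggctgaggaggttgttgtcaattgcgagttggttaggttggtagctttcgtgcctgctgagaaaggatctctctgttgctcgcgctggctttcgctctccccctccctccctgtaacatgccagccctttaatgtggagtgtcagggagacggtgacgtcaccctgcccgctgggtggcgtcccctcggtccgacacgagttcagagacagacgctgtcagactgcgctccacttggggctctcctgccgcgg
last peak before MIR4527HG: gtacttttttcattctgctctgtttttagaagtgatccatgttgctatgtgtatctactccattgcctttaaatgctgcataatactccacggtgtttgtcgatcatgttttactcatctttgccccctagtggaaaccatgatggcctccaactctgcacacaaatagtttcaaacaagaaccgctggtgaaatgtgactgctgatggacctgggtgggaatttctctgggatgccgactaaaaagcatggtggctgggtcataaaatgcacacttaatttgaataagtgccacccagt
highest peak among the falls: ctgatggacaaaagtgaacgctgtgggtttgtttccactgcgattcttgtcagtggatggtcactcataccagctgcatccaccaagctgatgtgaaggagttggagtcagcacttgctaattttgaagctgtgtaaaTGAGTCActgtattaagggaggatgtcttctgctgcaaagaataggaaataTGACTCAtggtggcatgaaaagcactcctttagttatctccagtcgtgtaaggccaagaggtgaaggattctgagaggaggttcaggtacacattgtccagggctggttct
distal peak of MIR4527HG: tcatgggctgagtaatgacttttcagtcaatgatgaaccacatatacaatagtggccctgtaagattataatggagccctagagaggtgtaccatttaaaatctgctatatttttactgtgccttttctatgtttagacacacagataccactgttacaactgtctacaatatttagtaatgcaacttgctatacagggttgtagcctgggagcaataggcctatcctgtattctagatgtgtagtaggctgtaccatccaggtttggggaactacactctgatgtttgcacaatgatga
hsa-miR-4527: uGGUCUGCaaagagaugacugu

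The called falls lay along MIR4527HG and not in SKOR2 itself. Of the 19 SKOR2 peaks, 12 were called lower and 0 higher, and the median log2 fold change was -1.22. All 12 were among the 14 peaks that overlap MIR4527HG, whose median was -1.83. None of the 5 SKOR2 peaks outside it was called, and their median was -0.09. The first called peak began 33.9 kb from the start site of SKOR2, and the 12 called peaks spanned 273 kb.

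**Figure D1:**
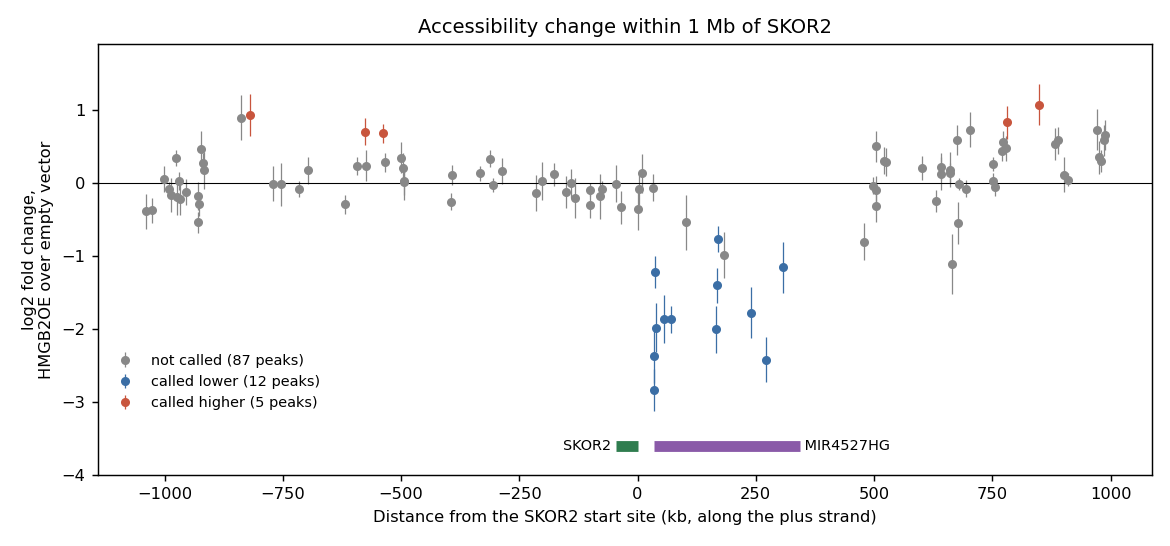
Log2 fold change of each tested peak (y axis, HMGB2OE over empty vector, bars are standard errors) against its distance from the SKOR2 start site in kb (x axis), with the spans of SKOR2 and MIR4527HG drawn beneath. The 12 called falls all lie over MIR4527HG, while the peaks in the SKOR2 body and at its start site, at -0.34 and -0.36, were not called.

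The SKOR2 gene itself had few and weak peaks. The only peak in its body, intronic at chr18:47215531-47216032, had normalized counts of 63.9, 76.6 and 58.5 in the empty vector libraries and 45.1, 66.7 and 46.2 in the HMGB2OE libraries. Normalized counts are reads scaled to a common effective library size. The promoter peak at chr18:47251650-47252151 had 66.7, 35.3 and 50.3 in empty vector and 34.9, 36.7 and 45.0 in HMGB2OE libraries. At both peaks the groups overlapped, and the log2 fold changes were -0.34 (standard error 0.23) and -0.36 (standard error 0.28). The other 3 peaks were intergenic and lay before MIR4527HG. The last of them, at chr18:47283460-47283961, held 93.1, 82.6 and 86.6 in empty vector and 79.9, 74.2 and 96.8 in HMGB2OE libraries, a log2 fold change of -0.07. Summed over the 5 peaks, empty vector libraries had 328 ± 29.7 and HMGB2OE libraries 300.2 ± 32.6 normalized counts (SD, n = 3 each).

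The change set in within 1.56 kb. The next peak, at chr18:47285519-47286020, covers the start of MIR4527HG. Its normalized counts were 90.3, 130.8 and 85.4 in empty vector libraries and 11.9, 9.18 and 23.6 in HMGB2OE libraries. Every HMGB2OE library was thus far below every empty vector library, and the log2 fold change of -2.84 (standard error 0.29) was the lowest of any tested peak. The following peak, at chr18:47287090-47287591, went from 50.03, 41.3 and 53.8 to 8.5, 10.8 and 7.88, a log2 fold change of -2.38. The peak after it, at chr18:47288178-47288679, kept more of its signal, with 104.2, 95.5 and 78.4 in empty vector and 31.5, 45.0 and 42.8 in HMGB2OE libraries and a log2 fold change of -1.22.

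Further into MIR4527HG the falls varied in size. The peaks starting at 47290986 and 47307188 changed by log2 values of -1.99 and -1.87. The peak at chr18:47323079-47323580 was the most accessible of the stretch in empty vector cells, with 145.9, 162.6 and 136.9, and held 47.6, 30.9 and 43.9 in HMGB2OE cells, or -1.87 as log2 fold change (standard error 0.19). The pair of adjacent peaks starting at 47417839 and 47418532 changed by log2 values of -2.01 and -1.40. The peak starting at 47422474 fell least among the called peaks, from 133.4, 128.2 and 103.0 to 68.0, 63.4 and 83.3, a log2 fold change of -0.77. The groups did not overlap at any of these peaks.

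The far end of MIR4527HG was lower as well. The peak starting at 47490850 had a log2 fold change of -1.78. The peak at chr18:47522152-47522653, which also lies in the non-coding gene ENSG00000261307, went from 83.4, 59.4 and 73.7 to 16.2, 8.34 and 15.8, or -2.42 as log2 fold change (standard error 0.31). The last SKOR2 peak, at chr18:47558130-47558631, had 48.6, 43.0 and 39.8 in empty vector and 17.9, 10.8 and 31.5 in HMGB2OE libraries, a log2 fold change of -1.16. Its call, which sets the far end of the span, was lost without any 1 library other than HMGB2OE replicate 3, with library size only and with DESeq2.

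Only 2 of the 14 peaks over MIR4527HG were not called. The peak starting at 47353477 held 37.5, 19.8 and 36.3 in empty vector and 14.5, 25.02 and 23.6 in HMGB2OE libraries, and the groups overlapped. This peak differed from its neighbours in sequence: 76.1% of its 31-base words occurred in other peaks of the atlas, up to 562 of them, against at most 6.14% in the other 18 SKOR2 peaks. How reads with several alignments were counted is not given in the sources used here. The peak starting at 47433380 held 54.2, 61.1 and 36.3 in empty vector and 24.7, 16.7 and 37.2 in HMGB2OE libraries, or -0.99 as log2 fold change (standard error 0.32).

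**Figure D2:**
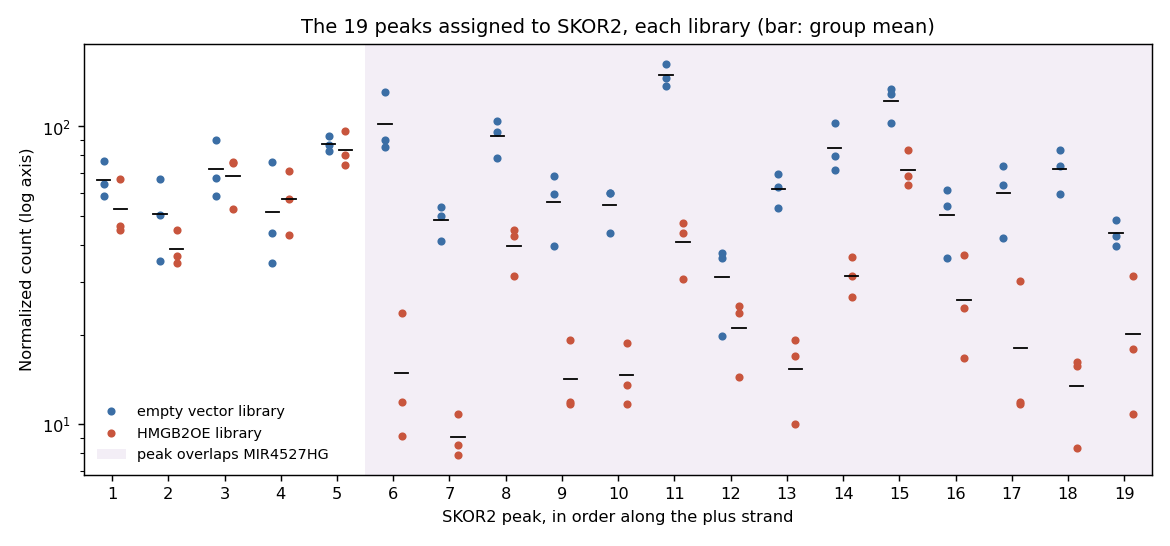
Normalized count (y axis, log scale) of the 19 SKOR2 peaks in order along the plus strand (x axis), with 1 point per library and a bar at each group mean. The HMGB2OE points lie below the empty vector points at 12 of the 14 shaded peaks, which overlap MIR4527HG, and mix with them at the 5 others.

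Most of the MIR4527HG sites were left near the bottom of the atlas. In empty vector cells the 14 peaks lay between the 6.04 and 61.4 percentiles of mean normalized count over tested peaks. In HMGB2OE cells they lay between the 0.211 and 34.1 percentiles, and 10 of the 14 were under the 5th percentile, against 0 in empty vector cells. Mean counts in HMGB2OE cells were 14.6% to 67.4% of those in empty vector cells. Summed over the 14 peaks, the normalized counts were 1115, 1033 and 933.8 in empty vector libraries and 336.6, 291.9 and 423.3 in HMGB2OE libraries, so that 34.1% remained. A smaller share of cells with an open site and a less open site in each cell cannot be told apart in these bulk libraries. The counts were also not corrected for DNA copy number, and whether the copy number of this stretch differed between the lines was not tested. The libraries did not overlap, with HMGB2OE below, at 12 of the 14 peaks, beside 12.5% of tested peaks in the atlas, and nothing is read from this since the same values chose the gene.

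On the side of SKOR2 the fall had an edge, and on the far side a gap in the peaks left its end undefined. Within 1 Mb of SKOR2, the 54 tested peaks before MIR4527HG had a median log2 fold change of -0.01, with 0 called lower and 3 higher, and their summed normalized count was 8168 to 8692 in empty vector and 8355 to 8853 in HMGB2OE libraries. No peak lay in the 172 kb after the last SKOR2 peak. The first peak past that gap, at chr18:47730889-47731390 and assigned to SMAD2, held 105.6, 57.6 and 66.7 in empty vector and 55.3, 35.9 and 37.2 in HMGB2OE libraries, with every HMGB2OE library below every empty vector library (log2 fold change -0.81, adjusted p = 0.0504, not called). It is the member of the neighbourhood just outside the rule. The 36 tested peaks after MIR4527HG had a median of 0.24, with 0 called lower and 2 higher. Over the atlas, 1.44% of tested peaks were called lower and 1.87% higher. The libraries did not overlap at 12 of the 36 with HMGB2OE above, beside 12.6% in the atlas.

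Ranked by median log2 fold change, MIR4527HG was the lowest of 601 long non-coding gene bodies with at least 10 tested peaks. ENSG00000279501 came next with a median of -1.01 and 14 of 15 peaks called lower. SKOR2 was the lowest of 4962 protein-coding genes by the peaks assigned to them, before VSTM2A at -1.12 with 13 of 22 called lower and MYOCD at -0.94 with 9 of 17. The ranks describe the values that chose SKOR2. DACH1 stood at rank 2408, SKI at 3086 and SKOR1 at 4072 of the same list, and SKIL had too few peaks for it.

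The genes with the most similar pattern over the 6 libraries were found from summed normalized counts, log2 transformed and centred, by root mean square difference. MYOCD, a coactivator of smooth muscle and cardiac genes on chromosome 17, was nearest with a difference of 0.12. Its sums over 17 peaks were 1787, 1713 and 1708 in empty vector and 927.4, 897.5 and 1001 in HMGB2OE libraries, beside 1431, 1339 and 1295 against 606.1, 588.9 and 757.6 for SKOR2. IL1RL1, the receptor of interleukin 33, followed at 0.23, and then came BSPH1 at 0.25, POM121L12 at 0.25 and SULT2A1 at 0.26. BSPH1 and SULT2A1 both lie on chromosome 19, and POM121L12 lies on chromosome 7, as does VSTM2A. None of the 5 was as low as SKOR2, whose log2 ratio of sums was -1.06 against -0.88 for MYOCD and -0.70 for IL1RL1.

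No peak of the relatives of SKOR2 was called. Of the 57 tested peaks of SKOR1, SKI, SKIL and DACH1, edgeR called 0, beside 1.44% lower and 1.87% higher in the atlas. With so few peaks, 0 is near those shares. At an unadjusted p under 0.05 there were 6 of 57, of which 1 was lower and 5 higher, beside 20.9% of tested peaks in the atlas. DESeq2 also called 0 of them, beside 2.59% of its tested peaks in either direction. The libraries did not overlap at 4 of the 57 peaks with HMGB2OE below and at 6 with HMGB2OE above, beside 12.5% and 12.6% of tested peaks in the atlas. Summed over the 57 peaks, normalized counts were 12076 ± 227 with empty vector and 12490 ± 226 with HMGB2OE (SD, n = 3 each).

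**Figure D3:**
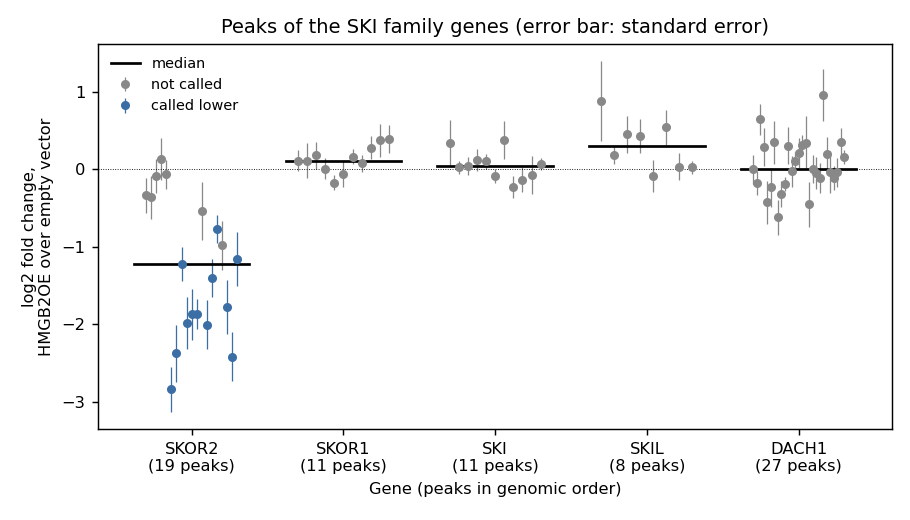
Log2 fold change (y axis, bars are standard errors) of every peak of the 5 genes in genomic order (x axis), with the median of each gene as a line. The medians of SKOR1, SKI, SKIL and DACH1 lie between 0.00 and 0.30, and that of SKOR2 at -1.22.

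SKI, the founding corepressor of the family, had its 11 peaks at a median of 0.04, and 10 of them lay in the gene body. Its promoter peak at chr1:2227598-2228099 was among the more accessible promoters of the atlas, with 1284, 1234 and 1112 in empty vector and 1228, 1331 and 1131 in HMGB2OE libraries (log2 fold change 0.03, standard error 0.08, adjusted p = 0.899). SKIL, whose product SnoN is the nearest relative of SKI, had a promoter peak at chr3:170357062-170357563 with 1069, 1084 and 1285 against 1159, 1228 and 1108 (log2 fold change 0.02, adjusted p = 0.905). The groups overlapped at both promoters. The 8 SKIL peaks, all intergenic, had a median of 0.30. At 3 of the 8, every HMGB2OE library lay above every empty vector library, as at 12.6% of tested peaks in the atlas, without a call. Of these 3, the peaks starting at 170306973 and 170320272 shared 33.7% and 31.4% of their 31-base words with other peaks. The first of them stood at the 0.166 percentile in empty vector cells.

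SKOR1, the closest relative of SKOR2, had its promoter peak at chr15:67820918-67821419 with 158.4, 144.5 and 172.0 in empty vector and 146.2, 183.5 and 182.4 in HMGB2OE libraries (log2 fold change 0.11, standard error 0.14, adjusted p = 0.708). Its 11 peaks ranged from -0.17 to 0.39. DACH1 had 27 peaks, 8 of them in its body, and among the 4 relatives they ranged most widely, from -0.62 to 0.96. Its promoter peak at chr13:71867102-71867603 held 262.7, 281.3 and 291.4 against 300.1, 330.3 and 269.1 (log2 fold change 0.11, adjusted p = 0.640). The intergenic DACH1 peak at chr13:71368186-71368687 came nearest to a call. It held 51.4, 70.6 and 87.8 in empty vector and 137.7, 85.9 and 106.9 in HMGB2OE libraries (log2 fold change 0.64, standard error 0.20, adjusted p = 0.0519), and it passed the threshold under several other settings.

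The 5 promoters differed in level far more than between conditions. By mean normalized count among promoter peaks, that of SKOR2 stood at the 5.85 percentile, that of SKOR1 at 42.1, that of DACH1 at 54.7, that of SKIL at 88.5 and that of SKI at 89.8. SKI and SKIL did not differ beyond their spread in empty vector cells, at 1210 ± 88.7 and 1146 ± 121 (SD, n = 3 each). The peaks compared are of equal length.

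**Figure D4:**
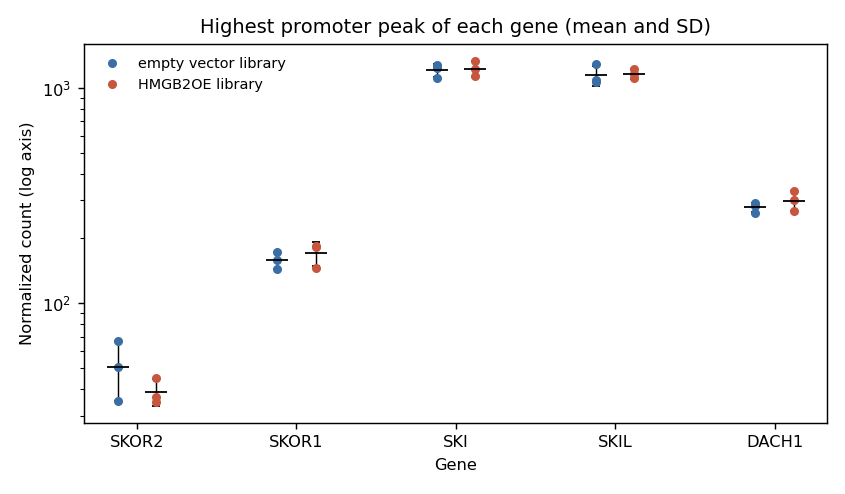
Normalized count (y axis, log scale) of the highest promoter peak of each gene (x axis), with 1 point per library and the mean and SD of each group. Points of both groups mix at every gene, from about 50.8 in empty vector cells at SKOR2 to 1210 at SKI.

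In the TGF-beta and BMP pathway on which SKI proteins act, the share of calls was near that of the atlas. Over lists of receptors, SMAD proteins, ubiquitin ligases, corepressor partners, developmental partners, target genes and DACH2, 9 of 726 tested peaks were called higher and 9 lower, which is 1.24% in each direction, beside 1.87% higher and 1.44% lower in the atlas, with a median of -0.003. Among 10 receptors, 4 of 171 peaks were called higher and 1 lower. An intronic peak of TGFBR3, which encodes the co-receptor betaglycan, rose from 116.3 ± 23.3 to 202.9 ± 21.8 (SD of 3 libraries each, log2 fold change 0.80, adjusted p = 0.00125). Intergenic peaks assigned to ACVR2A, an activin receptor gene whose start site was 813081 bases away, and to TGFBR1, the type I TGF-beta receptor gene, 13046 bases away, rose by log2 fold changes of 0.75 and 0.67.

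Among the 8 SMAD genes, 1 of 157 peaks was called higher and 2 lower, beside 1.87% higher and 1.44% lower in the atlas. An intergenic peak 42843 bases from the start site of SMAD5, which carries BMP signals, rose from 44.5 ± 5.80 to 97.7 ± 8.13 (SD of 3 libraries each, log2 fold change 1.14, adjusted p = 0.000891). One of the 2 SMAD3 peaks that fell, 163598 bases from its start site, went from 88.4 ± 4.61 to 40.2 ± 4.96 (SD of 3 libraries each, log2 fold change -1.13, adjusted p = 0.00145). No SMAD promoter was called, and their log2 fold changes ran from -0.19 at SMAD5 to 0.24 at SMAD9, with -0.02 at SMAD2, -0.05 at SMAD4, -0.19 at SMAD7, -0.06 at SMAD1, -0.05 at SMAD6 and 0.10 at SMAD3. SMAD2, SMAD4 and SMAD7 lie on chromosome 18 with SKOR2.

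Of the ubiquitin ligase genes, SMURF2 had 2 peaks higher and 1 lower of 29, beside 1.87% higher and 1.44% lower in the atlas. One intergenic peak went up from 242.1 ± 26.8 to 402.8 ± 33.9 (SD of 3 libraries each, log2 fold change 0.72, adjusted p = 0.000225), and another went down from 79.6 ± 15.4 to 33.2 ± 4.55 (log2 fold change -1.25, adjusted p = 0.00184). One intronic peak of RNF111 was called lower at 41.9 ± 10.4 against 18.8 ± 8.39 (SD of 3 libraries each, adjusted p = 0.0495), a call that was lost in 10 of 15 other fits, among them those without any 1 library (adjusted p = 0.0565 to 0.223). Among corepressor partners, 1 of 99 peaks was higher, at HDAC1, and 1 lower, at HDAC2, both histone deacetylase genes, while NCOR1 and SIN3A had none. Among developmental partners, 0 of 117 peaks were higher and 2 lower, both intronic peaks of EYA2, a partner of DACH1. One fell from 353.2 ± 17.6 to 194.3 ± 12.1 (SD of 3 libraries each, log2 fold change -0.86, adjusted p = 3.2e-05). The other changed by a log2 fold change of -0.71 (adjusted p = 0.00388). Among 8 target genes, 1 of 131 peaks was higher, 38995 bases from the start site of ID3, and 1 lower, inside the non-coding gene LINC01013 and 103239 bases from the start site of CCN2, which encodes a secreted matrix protein. Calls were lost at HDAC1 without HMGB2OE replicate 3 (adjusted p = 0.0767), at CCN2 without HMGB2OE replicate 1 (adjusted p = 0.0773), at HDAC2 without HMGB2OE replicate 1 or 3 or empty vector replicate 2 (adjusted p = 0.085 to 0.206) and at ID3 without empty vector replicate 2 or any HMGB2OE library (adjusted p = 0.0557 to 0.169). The HDAC2 call was also lost with DESeq2 (adjusted p = 0.0596), with GC offsets (0.0874) and with GC offsets and the replicate block (0.0738), and the ID3 call with DESeq2 (adjusted p = 0.0571).

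The listed neighbours of SKOR2 on chromosome 18 had 3 of 101 peaks called higher and 1 lower. This is 2.97% and 0.99%, beside 1.87% higher and 1.44% lower in the atlas. SMAD2 had 0 of 24 called. ZBTB7C, a zinc finger gene beyond it, had 2 of 32 higher and 1 lower. An intronic peak rose from 25.6 ± 3.16 to 53.5 ± 7.58 (SD of 3 libraries each, log2 fold change 1.07, adjusted p = 0.0203). That call was lost without HMGB2OE replicate 2 or 3 or empty vector replicate 2 or 3 (adjusted p = 0.058 to 0.0819). The peak called lower, also intronic, went from 338.3 ± 22.4 to 219.4 ± 50.5 (log2 fold change -0.64, adjusted p = 0.00351). With libraries left out in turn its log2 fold change was -0.78 to -0.46. CTIF, a translation factor gene, had 1 of 29 higher, with a log2 fold change of 1.11. On the side of the SKOR2 body, HDHD2, IER3IP1, KATNAL2 and PIAS2 had no called peak. The 3 peaks called higher within 1 Mb on that side belonged to genes not on the list. They were at RNF165 (log2 fold change 0.92) and ST8SIA5 (0.70 and 0.68).

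The 14 peaks over MIR4527HG, 12 of them called lower, were searched for sequence words. So few peaks cannot tell a modest difference in shares from none. The AP-1 word was held by 6 of the 14 peaks over MIR4527HG, which is 42.9%, beside 36.4% of all tested peaks and 41.2% of tested peaks away from promoters. The word CAGACA, which SMAD proteins can bind, was also in 6 of the 14, beside 33.7% of tested peaks, and the TEAD word GGAATG in 5 of the 14, beside 29.0%. Words for SOX (ACAAAGG), MITF (TCACGTG) and POU (ATGCAAAT) factors were in 0 of the 14, beside 12.1%, 2.78% and 3.08% of tested peaks. The RefSeq promoter of SKOR2 held no AP-1 word, which 7.71% of RefSeq promoters hold, and the measured promoter peak, which reaches further upstream, held 1. The median GC content of the 14 peaks was 45.6%, beside 46.2% for all tested peaks.

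Counts in peaks ranged from 26910189 to 45645294 per library. Of the melanoma lineage markers, SOX10, MITF, PMEL and S100B had a tested promoter peak, and MLANA, TYR and DCT had none. For each marker the highest peak within 3 kb of any of its protein-coding transcript starts was taken. Such a peak can belong to another transcript or to a neighbouring gene. The level of a marker, such as the 99.9 percentile of promoter peaks for PMEL, therefore does not show an open lineage-specific promoter. Among dedifferentiated melanoma markers, the promoter peaks of AXL, EGFR, NGFR and SOX9 stood at the 95.2, 67.6, 66.3 and 52.4 percentiles. Of markers of other cell types, PTPRC and ALB had no tested promoter peak, that of PECAM1 stood at the 1.07 percentile and that of EPCAM at 48.6, and the latter 2 had log2 fold changes of -0.01 and -0.05. The promoter peak of HMGB2 had a log2 fold change of -0.01, and its 2 coding exon peaks had values of 1.16 and 1.67. Reads from the gene and from the introduced HMGB2 sequence cannot be told apart there.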

How the data were processed

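ATAC-seq libraries of A375 cells, 3 empty vector and 3 HMGB2OE, were grouped by their labels. Per the labels and the study's methods, the authors used Trim Galore 0.6.7 and Cutadapt 4.0 for trimming, Bowtie 2 for alignment to hg38, Picard for duplicates and MACS2 for peaks, with a public melanocyte dataset as control. Peaks were merged into 1 atlas, and the authors deposited raw featureCounts counts per peak and library, with no normalization and no pooling. A Tn5 shift and the treatment of reads with several alignments are not given in the sources used here. The depth of 26910189 to 45645294 counts limits the precision at weak peaks.

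The members and gene lists were chosen with earlier results of these data known. Counts were fitted with edgeR 4.0.16 in R 4.3.3 (TMM, filterByExpr, quasi-likelihood F test, no covariate) on 150117 peaks, with Benjamini-Hochberg adjustment over all of them. Standard errors of log2 fold changes came from their size over the root of the F statistic. Peaks were annotated with GENCODE release 44, and a promoter peak lies within 3 kb of a protein-coding transcript start. Genes named are all SKOR2 peaks, the highest promoter peak of each relative, up to 3 genes with called peaks per list, the SMAD genes and the 5 genes most like SKOR2. Other peaks and ranks given were chosen after their values were seen. Alternatives were DESeq2 1.42.0, other scalings, filters, GC offsets, fold limits, peak assignments, a replicate block and leaving out each library. Promoter sequences matched 4 of 5 members in RefSeq. A peak sequence and a listed gene are not reported here. The scripts were tested on simulated data. Libraries of a group differed by more than sampling noise, with chi-square per degree of freedom of 2.49 to 4.65.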

Additional observations from a re-analysis of the deposited data

How the results depend on the processing

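The number of SKOR2 peaks called lower was 12 in the fit reported and 10 to 13 under 19 other settings, and 10 to 12 of the same 12 peaks stayed called in each of the 15 other fits. With each library left out in turn it was 11 to 13. The call of the last peak, starting at 47558130, was lost without any 1 library other than HMGB2OE replicate 3, with library size only and with DESeq2, and the peak starting at 47433380 was called without HMGB2OE replicate 3 or empty vector replicate 3, with the loess trend and with at least 10 counts in every library. DESeq2 called 10 and gave the peak starting at 47287090 no adjusted p, and that peak did not pass the filter of 10 counts. Whether the replicate numbers in the labels pair the libraries was not settled. Deviations of same-numbered libraries correlated at -0.0876, 0.185 and 0.126, and those of differently numbered libraries at -0.265 to 0.151. With a replicate block, 12 SKOR2 peaks were called lower, and 2383 peaks of the atlas were lower and 3192 higher.

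The count of called peaks of SKOR1, SKI, SKIL and DACH1 went from 0 to 1 with DESeq2 size factors, GC offsets, at least 10 counts in every library, library size only, the replicate block, and the block with GC offsets, in each case the DACH1 peak starting at 71368186, with adjusted p-values of 0.0206 to 0.0495. With libraries left out in turn it was 0 to 1: that DACH1 peak was called without empty vector replicate 3 or HMGB2OE replicate 2, and the SKIL peak starting at 170346679 without HMGB2OE replicate 3 (log2 fold change 0.79). Over the atlas, no fold limit gave 5164 higher and 4546 lower, and a lower fold limit gave 5045 and 4283. With libraries left out in turn, 1821 to 2978 peaks were higher, the fewest without HMGB2OE replicate 1, and 1552 to 2237 lower.

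Promoter values near 0 changed sign in places, none of them called. With libraries left out they ran from -0.0348 to 0.0825 at SKI, -0.0177 to 0.113 at SKIL, -0.106 to 0.00652 at SMAD1 and -0.062 to 0.0126 at SMAD2; single values were -0.0331 for SKI, -0.0148 and -0.0154 for SKIL and 0.00636 for SMAD2. The SMAD2 promoter was at 0.0086 with GC offsets, 0.00934 with GC offsets and the block, 0.00148 with library size only and 0.0439 with a loess trend. The SMAD4 promoter was at 0.00066 with GC offsets and 0.000615 with the block added, and the SMAD6 promoter at 0.00815 with the loess trend. The causes were not tested. Peaks of low count, among them most of MIR4527HG in HMGB2OE cells, rest on few reads, and with 3 technical libraries a group no statement extends to other lines or transductions.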
